A study of Mus musculus with 6 samples.

Results

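The cytosolic ribosomal protein genes encode the proteins of the large (Rpl) and small (Rps) subunits of the ribosome that translates nuclear-encoded messages. They were taken here as the protein-coding genes of GENCODE release M21 of the mouse whose symbol starts with Rpl or Rps followed by a digit, a or p, without the S6 kinases (Rps6k) and pseudogenes (-ps). The rule gave 86 genes, of which 84 had at least 1 listed event in the nucleus accumbens (NAc), out of 16154 genes listed in the series. Of the 86, 8 stood in a preset list of paralogs and of genes that carry a ribosomal protein's name without being one. The other 78 were taken as ribosomal proteins in the stricter sense, and they include Rps27rt, which has 1 annotated exon and was never listed.

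Ribosomal proteins are made in near-equal amounts from some of the most abundant messages of a cell. Their messages typically begin with a pyrimidine tract next to the cap, the 5′ terminal oligopyrimidine (TOP) motif, through which the mTOR pathway sets their translation. Many of these genes also carry small nucleolar RNAs (snoRNAs), guides for the modification of ribosomal RNA, in their introns, and several ribosomal proteins limit their own production through alternative splicing of their pre-mRNA.

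The NAc, a striatal region of the reward circuit, came from adult male C57BL/6N mice that went through conditioned place preference (CPP), in which a compartment is paired with an injection. The saline group (3 libraries) received Saline injection and the morphine group (3 libraries) morphine, with no other difference in strain, tissue or training given in the labels, and tissue was taken after the preference test. Whether a library pools animals is not settled by the sources, and p-values measure the spread between these libraries only. Bulk tissue does not separate fewer cells of a type from less RNA per cell.

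For each library the authors deposited a list of events in the transcripts that they had assembled: transcript starts, transcript ends, skipped exons, retained introns and alternative exon ends. An event in a list says that the assembly held the form or pair of forms. It gives no level, and an event that is missing from a list was not shown to be absent from the tissue. Expression levels of these genes were not analysed here. The libraries listed between 14243 and 14956 genes and between 54750 and 62313 events, and their relative depth lay between 1 and 1.37 in saline and between 1.2 and 1.59 in morphine. This depth scale rests on 91 values of a deposited table, and 4 transcripts link the groups on it. All 12 markers of striatal medium spiny neurons, 6 of 6 oligodendrocyte, 6 of 6 astrocyte, 6 of 6 microglial, 6 of 6 ependymal and 5 of 6 endothelial markers were listed in each library. The event numbers of these lists overlapped between the groups, except those of the 6 ependymal markers, with 13, 13 and 15 events in saline and 17, 20 and 18 in morphine (two-sided exact permutation test, p = 0.1, the smallest possible).

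The ribosomal protein genes were listed almost completely and almost identically in both groups. In saline 82, 83 and 82 of them were listed, and in morphine 81, 82 and 83. Of the 86 members 81 (94.2%, 95% Wilson interval 87.1 to 97.5) were in all 6 lists, while 82.0% of the 15820 other protein-coding genes with any event were. The intervals treat genes as independent and cover counting error only. An entry with a gene's identifier counted as a listing even where it lay outside the gene, as for Rps29 in saline 1 and morphine 1. The total number of events was 222, 222 and 219 in saline and 217, 224 and 225 in morphine. The groups overlapped, with a mean of 221 ± 1.73 (SD, n = 3) against 222 ± 4.36 (SD, n = 3; two-sided exact permutation test, p = 0.8; adjusted p = 1.0 over 8 tests). With 3 libraries against 3, this test gives no p under 0.1. The share of a library's listed events that lay in these genes averaged 0.39% for saline (SD 0.0137, n = 3) and 0.371% for morphine (SD 0.0234, n = 3; exact permutation p = 0.4, adjusted p = 0.8).

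A plain structure was more frequent among the members than among other genes, but it was not the rule. In 32 of the 81 members listed everywhere (39.5%), each of the 6 lists held 1 start, 1 end and nothing else, against 20.9% of the 12980 other protein-coding genes listed everywhere. Among these were Rpsa, the small subunit protein also known as the laminin receptor, Rps3, which lines the messenger RNA entry of the small subunit, Rplp1, a protein of the acidic stalk that engages elongation factors, and Rpl41, the smallest ribosomal protein. The count does not require the same start and end in each list. The Rpl41 end listed in morphine 1 lay 9298 bases outside the gene. The event number was the same in all 6 lists for 47 of the 81 members (58.0%) and for 26.0% of the other genes. Between 2 and 6 events were listed per member and library. A number of 3 in every library was seen for 10 members, among them Rpl3, a core protein next to the peptidyl transferase centre, and Rpl13a, known outside the ribosome for translational silencing of inflammatory messages. Of the 34 members whose number varied, 24 varied by 1 event.

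**Figure D1:**
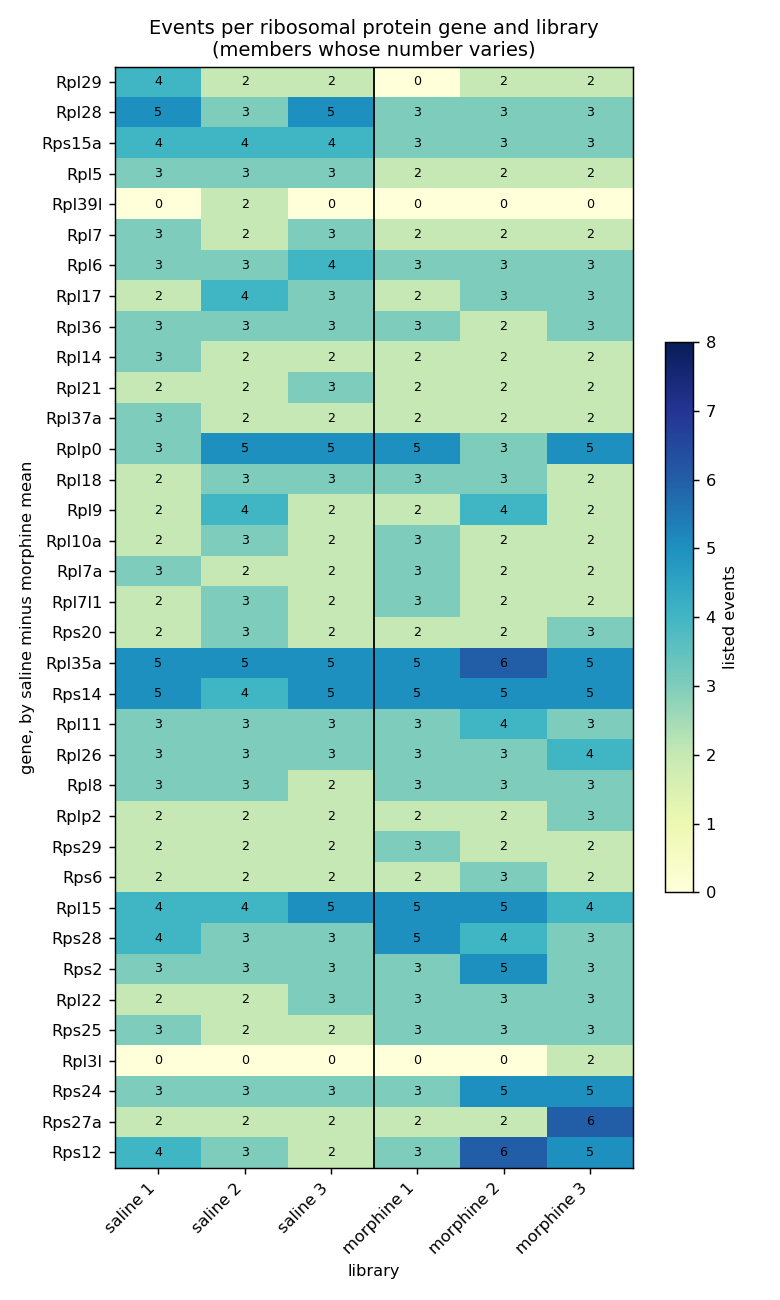
Number of listed events (colour and digit) for 36 ribosomal protein genes whose number was not the same in all 6 libraries, with genes as rows ordered by the saline minus the morphine mean and libraries as columns. Most rows differ by 1 event in 1 or a few libraries, and in the rows of Rps15a and Rpl5 each saline library lies above each morphine library.

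Compared with other genes, the ribosomal protein genes had fewer events of the classes that change the inside of a transcript. Per listed gene they had 2.7 ± 0.0251 events, and other protein-coding genes had 4.01 ± 0.186 (SD, n = 6 libraries). The difference was -1.32 and was negative in 6 of 6 libraries (two-sided exact sign-flip permutation test over libraries, p = 0.0312, the smallest possible; adjusted p = 0.0417 over 12 comparisons). Other genes have longer gene models, with a median of 10 exons in the annotated transcript with the most exons, against 5 for the ribosomal protein genes. The mitochondrial ribosomal proteins, which build the separate ribosome of the mitochondrion and are encoded by 78 nuclear genes with a median of 5 exons, gave a comparison at the same exon number. They had 3.04 ± 0.177 events per listed gene (SD, n = 6), more than the cytosolic set in 6 of 6 libraries (exact sign-flip permutation p = 0.0312, adjusted p = 0.0417).

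The difference lay in the splicing families. Exon skipping events numbered 4.25 ± 2.24 per 100 listed cytosolic ribosomal protein genes, 15.3 ± 2.86 per 100 mitochondrial ribosomal protein genes and 41.4 ± 1.11 per 100 other protein-coding genes (SD, n = 6). For alternative exon ends the values were 6.09 ± 1.32, 25.2 ± 3.41 and 41.2 ± 3.11, and for intron retention 0.605 ± 1.01, 13.8 ± 7.48 and 48.9 ± 11.3. In each of these 3 families the cytosolic set was lower than either other set in 6 of 6 libraries (exact sign-flip permutation p = 0.0312, adjusted p = 0.0417 each). Transcript starts did not separate the cytosolic set from other genes, with 154 ± 2.88 against 153 ± 3.39 per 100 genes (exact sign-flip permutation p = 0.344, adjusted p = 0.375). The difference ranged over libraries from -4.0 to 6.0. The mitochondrial set had 144 ± 6.55 starts per 100 genes. The cytosolic set was lower than it in 1 of 6 libraries, with a mean difference of 10.5 and a range of -1.0 to 17.0 (exact sign-flip permutation p = 0.0625, adjusted p = 0.075). Ends were fewer than in other genes, 104 ± 2.32 against 117 ± 1.63 (exact sign-flip permutation p = 0.0312, adjusted p = 0.0417), and within 5.0 of the mitochondrial set in every library (105 ± 1.51; exact p = 0.438, adjusted p = 0.438).

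**Figure D2:**
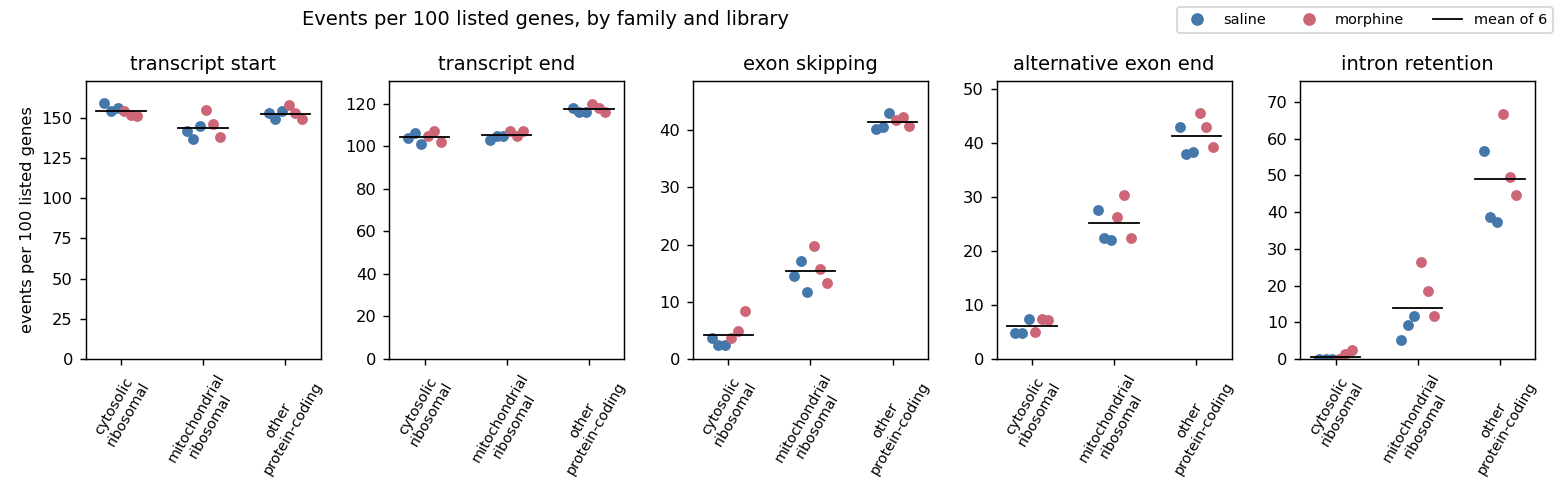
Events per 100 listed genes in each of the 5 event families (panels, each axis from 0), for cytosolic ribosomal, mitochondrial ribosomal and other protein-coding genes, the last including the mitochondrial set. Points are the 6 libraries by group and lines their means. Starts lie at similar heights in the 3 sets, while retained introns go from 0.605 per 100 cytosolic ribosomal protein genes to 48.9 per 100 other genes.

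Entries of the intron retention family were nearly absent from the lists although the annotation holds many retained introns. The listed shares below count entries of this family only. A start or end exon that ran across an intron was listed as a start or end and is not in them. The annotated and the listed shares are thus not counted alike. Of 528 annotated introns in the 81 members listed everywhere, 184 (34.8%), in 60 genes, are kept inside an exon of some annotated transcript. In the other protein-coding genes this share is 6.13%, and in the mitochondrial ribosomal protein genes 14.6%. Yet 1 of the 528 introns (0.189%) was listed as retained in any library, against 7.18% of 195134 introns of the other genes and 4.67% of 471 in the mitochondrial set. Of the introns that the annotation shows as retained, 1 of 184 (0.543%) was listed in the cytosolic set, 2396 of 11967 in other genes and 8 of 69 (11.6%) in the mitochondrial set. Library by library the cytosolic set had 0, 0 and 0 retained introns in saline and 0, 1 and 2 in morphine (exact permutation p = 0.4, adjusted p = 0.8), and libraries as a whole listed between 5473 and 9604.

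The 3 entries behind these numbers came from Rps12 in the morphine 2 library and Rps27a in the morphine 3 library. Rps27a encodes a fusion of ubiquitin with ribosomal protein S27a. It had 2 events in 5 libraries and 6 in morphine 3, where the exon at chr11:29546703-29546788 (GRCm38, minus strand) also appeared with an unannotated 5′ end 17 bases inward, and the intron next to it was listed as retained from both exon ends. The start exon listed in saline 1, 2 and 3 and in morphine 1 and 3 had its inner end at 29546703. It reached as far as 29547955, a span that covers this intron, and its outer end took 3 positions. The retention entries in morphine 3 alone therefore do not show that the intron was spliced out elsewhere. The Rps12 entry was a multi-intron form that reached far outside the annotated gene and is described with that gene. Of the members, 30 hold 58 annotated snoRNAs in their introns, and 15 hold 2 or more, such as Rpl13a and Rpl4. Among 77 annotated introns with a snoRNA, 25 are retained in an annotated transcript. Among the entries of the intron retention family 1 stretch held a snoRNA, the Rps12 entry over Snora33, and it was in the morphine 2 library alone.

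Skipped exons and alternative exon ends were limited to 8 members: Rpl10, Rps18, Rps24, Rplp0, Rpl28, Rps2, Rps27a and Rps12. The other 73 of the 81 members listed everywhere (90.1%) had no event inside the transcript in any library, against 40.3% of other protein-coding genes. In saline 3, 2 and 2 skipping events were listed and in morphine 3, 4 and 7, with groups that overlapped (2.33 ± 0.577 against 4.67 ± 2.08, SD, n = 3; exact permutation p = 0.2, adjusted p = 0.8). Rps12 contributed 1, 0 and 0 of them in saline and 1, 0 and 3 in morphine, and its skipping events lay 4674 or 5744 bases outside its annotated gene. Alternative exon ends, entered once for each of the forms of an exon, numbered 4, 4 and 6 in saline and 4, 6 and 6 in morphine (4.67 ± 1.15 against 5.33 ± 1.15, SD, n = 3; exact permutation p = 1.0, adjusted p = 1.0).

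Rps24, a small subunit protein mutated in Diamond-Blackfan anaemia, is known for transcripts that differ in very short exons at the end of the coding sequence. Its 20-base exon at chr14:24495430-24495449 (GRCm38, plus strand) was listed in both its included and its skipped form in 6 of 6 libraries. An 18-base exon before it, at chr14:24494052-24494069, was listed in morphine 2 and morphine 3 only, together with the joint skipping of both exons. The gene therefore had 3, 3 and 3 events in saline and 3, 5 and 5 in morphine. The groups overlapped at 3. The relative depth was 1.59 for morphine 2, 1.29 for morphine 3 and 1.37 for saline 3 on a scale that 4 transcripts link between the groups, and the part of depth was not tested. The annotated forms are shown because they differ in where the reading frame stops. Capitals mark the 18-base exon, the 20-base exon, and, where neither is used, the last codons with the stop codon. In each line the preceding 15 bases are the end of the same coding exon.

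Rps24 with the 18-base exon: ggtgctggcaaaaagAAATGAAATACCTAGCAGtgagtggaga
Rps24 with the 20-base exon alone: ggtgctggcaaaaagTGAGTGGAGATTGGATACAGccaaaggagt
Rps24 with neither: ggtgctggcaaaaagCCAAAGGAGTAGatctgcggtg

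With the 20-base exon the frame stops at once, at the TGA that opens the exon, and the coding sequence has 390 bases. The 18-base exon adds 1 codon before a TGA (393 bases), and the form with neither adds 3 codons before a TAG (399 bases). The lists thus held the forms with 0 and 3 added codons in each library, and the form with 1 added codon in 2 of 3 morphine libraries and in no saline library.

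Rpl10, a large subunit protein placed late in subunit maturation, had 4 events in each library: 2 starts, 1 end and 1 skipped exon. The skipped exon, chrX:74272672-74272834 (GRCm38, plus strand), has 163 bases, all coding, and was listed in its included and skipped form in 6 of 6 libraries. As 163 is not a multiple of 3, the skipped form changes the reading frame. The exon is in capitals with 20 bases of its neighbours.

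Rpl10: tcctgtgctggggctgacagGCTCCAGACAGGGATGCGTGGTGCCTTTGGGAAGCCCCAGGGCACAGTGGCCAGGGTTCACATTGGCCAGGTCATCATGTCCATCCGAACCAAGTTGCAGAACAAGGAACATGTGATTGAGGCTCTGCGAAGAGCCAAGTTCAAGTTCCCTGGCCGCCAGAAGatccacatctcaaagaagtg

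Rps18, a protein of the small subunit head, also had 4 events in each library: 1 start, 1 end and the pair of forms of an exon that begins at different acceptor sites. On the minus strand the exon chr17:33952221-33952312 was listed beside the shorter chr17:33952221-33952293 in 6 of 6 libraries. The shorter form leaves out 19 coding bases. Its annotated coding sequence has 321 bases against 456 for the longer form, and stops at a TGA that lies 40 bases before the last exon junction. Rplp0, the stalk base that binds Rplp1 and Rplp2, had 3, 5 and 5 events in saline and 5, 3 and 5 in morphine, since an exon form with 22 additional bases at its 5′ end (chr5:115560719-115561004 beside chr5:115560741-115561004, plus strand) was listed in 2 libraries of each group. Rpl28, a large subunit protein, had such a pair with 14 additional bases (chr7:4794050-4794182 beside chr7:4794064-4794182) in saline 1 and saline 3 and in no morphine library, and the saline number of 5, 3 and 5 overlapped the morphine number of 3, 3 and 3. Rps2, which sits at the messenger RNA entry of the small subunit, had a pair with 13 additional bases at the 3′ end of an exon (chr17:24721623-24721727 beside chr17:24721623-24721714) in morphine 2 alone. In the sequences, capitals mark the bases that one form has and the other lacks.

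Rps18: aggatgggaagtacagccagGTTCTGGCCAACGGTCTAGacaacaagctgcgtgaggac
Rplp0: catcTTTTTCCTGGCTTCCTTCATAGcaac
Rpl28: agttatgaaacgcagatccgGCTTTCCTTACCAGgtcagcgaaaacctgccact
Rps2: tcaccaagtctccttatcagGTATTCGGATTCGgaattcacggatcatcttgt

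None of these 4 lengths is a multiple of 3. The bases of Rps18, Rpl28 and Rps2 in capitals are annotated as coding, while the 22 bases of Rplp0 lie outside the annotated coding sequence of their form. The forms are in the annotation, as were 10 of the 12 listed exon forms of the members. The lists do not give how many reads stood behind a form.

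Transcript starts were the family in which the groups did not overlap. Saline libraries listed 130, 128 and 128 starts in ribosomal protein genes and morphine libraries 125, 125 and 125, a mean of 129 ± 1.15 against 125 ± 0.0 (SD, n = 3). The difference of -3.67 has the smallest p that the exact permutation test allows, 0.1, and an adjusted p of 0.8 over the 8 tests. Rpl5 and Rps15a each contributed -1.0 to it, and the starts of all other members together numbered 125, 123 and 123 in saline and 122, 122 and 122 in morphine, which left a difference of -1.67.

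**Figure D3:**
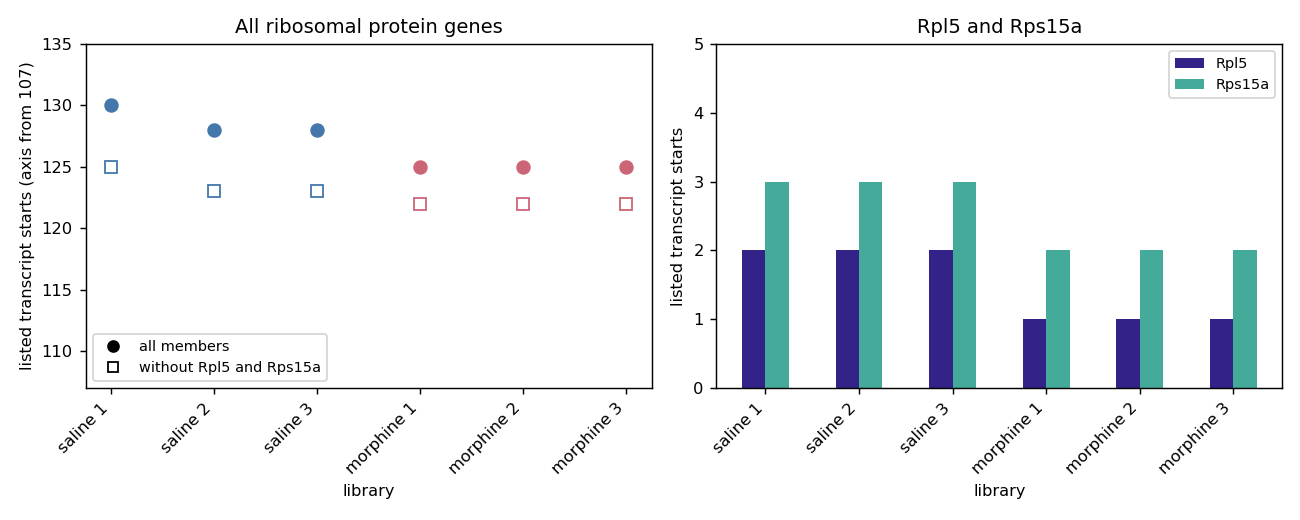
Left, transcript starts listed in all ribosomal protein genes (filled circles) and without Rpl5 and Rps15a (open squares), by library, on an axis that starts at 107. Right, starts of these 2 genes by library, as bars from 0. The filled circles lie at 128 to 130 in saline and at 125 in morphine, and the open squares at 123 to 125 in saline and at 122 in morphine.

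Rpl5 and Rps15a were also among the members whose total event number did not overlap between the groups. Rpl5 had 3, 3 and 3 events in saline and 2, 2 and 2 in morphine. Rps15a had 4, 4 and 4 in saline against 3, 3 and 3. In all, 3 of the 84 listed members (3.57%) had such numbers, higher in saline. Over all 16154 listed genes, 0.966% had numbers that were higher in each saline library and 1.81% in each morphine library, and no member was among the latter. Of the 289 distinct events of the members, 2 (0.692%) were in all saline libraries and in no morphine library, against a background of 0.278% of all events. None was in all morphine libraries and in no saline library, for which the background is 0.382%. With counts of 3 genes and 2 events, no test against these backgrounds was made.

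Rpl5 binds the 5S ribosomal RNA and, with Rpl11, the p53 regulator Mdm2. Its start at chr5:107900502-107900646 (GRCm38, plus strand) was listed in 6 of 6 libraries, and a start downstream at chr5:107900874-107901071 in saline 1, 2 and 3 and in no morphine library. Both first exons are annotated and join the same next exon at position 107901870. The start codon of the usual form consists of the last 3 bases of its first exon, so a transcript from the downstream start lacks it, and its annotated coding sequence begins further on, at position 107902099. The sequences across the junction are shown for this reason, with the start codon in capitals in the usual form and the shared bases of the next exon in capitals in the other.

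Rpl5, start in all 6 libraries: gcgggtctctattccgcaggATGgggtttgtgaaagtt
Rpl5, start in saline only: gatcggacttgagagGGGTTTGTGAAAGTT

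Rps15a, a small subunit protein, had 3 listed starts on the minus strand. Those with the first exons chr7:118116136-118116186 and chr7:118115740-118116129 were in 6 of 6 libraries, and the start with chr7:118115472-118115677 was in saline 1, 2 and 3 and in no morphine library. In contrast to Rpl5, each first exon is joined ahead of the same start codon, shown in capitals.

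Rps15a, first exon ending at 118116136: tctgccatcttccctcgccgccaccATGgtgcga
Rps15a, first exon ending at 118115740: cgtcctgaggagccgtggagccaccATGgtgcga
Rps15a, first exon ending at 118115472: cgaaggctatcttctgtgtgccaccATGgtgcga

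The relative depth was 1, 1.07 and 1.37 in saline and 1.2, 1.59 and 1.29 in morphine, and the ependymal marker events did not overlap between the groups either. The part of both in these starts was not tested.

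Several members had more than 1 start in every library. Of the members, 23 had 2 or more starts listed in all 6 libraries, while 1 had 2 or more ends. The largest numbers belonged to Rpl35a, Rpl38 and Rps19 with 4 such starts each. Rpl35a, a large subunit protein affected in Diamond-Blackfan anaemia, had 5 events in 5 libraries and 6 in morphine 2, the highest sum of all members (31 over the 6 libraries). Rpl38, known from the Tail short mouse for its part in translating Hox messages, and Rps19, the protein most often mutated in Diamond-Blackfan anaemia, had 5 events in each library. Rpl15, Rpl31 and Rps14 followed with 3 such starts. Rpl31 had 4 events throughout, Rpl15 had 4, 4 and 5 in saline and 5, 5 and 4 in morphine, and Rps14 had 5 in each library but saline 2, which had 4. In Rpl15 a further start, chr14:18271219-18271391 (minus strand), was in saline 3, morphine 1 and morphine 2.

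The position of a start was not measured independently of the annotation. Of 761 start entries of the members over the 6 lists, 723 (95% Wilson interval 93.2% to 96.3%) lay within 50 bases of an annotated transcript start, and 550 (72.3%) at its exact base. For other protein-coding genes the shares were 74.0% and 60.4%. Counted as splice sites, 87.6% of the 161 distinct starts and 85.8% of the 106 distinct ends of the members are annotated, against 53.2% and 58.5% in other protein-coding genes.

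Since these genes are known for a pyrimidine tract at the cap, the start regions in the RefSeq promoter table (GRCm38.p6) were searched on the gene's strand for a C followed by at least 5 bases that are each C or T, beginning within 10 bases of the RefSeq start. The table held 78 promoters for 66 of the 86 members, and 36 of them (46.2%) had such a tract. The share was 19.2% of all 32851 promoters and 21.3% of 75 promoters of mitochondrial ribosomal protein genes. A match describes letters and is no evidence of TOP control, and a promoter without one says only that the tract is not within these bases. Windows from 10 bases before to 20 from the start are given for 5 members, with the tract in capitals. Only promoters with a tract are shown. Rps24 and Rpl35a also have RefSeq promoters without one, and that of Rpl35a at position 33056453 coincided with a listed start.

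Rpl13a, chr7:45128726-45128755, minus strand: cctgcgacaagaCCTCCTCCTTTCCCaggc
Rpl15, chr14:18270967-18270996, minus strand: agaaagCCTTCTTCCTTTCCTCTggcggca
Rps18, chr17:33955646-33955675, minus strand: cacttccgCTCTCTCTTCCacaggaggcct
Rps24, chr14:24490668-24490697, plus strand: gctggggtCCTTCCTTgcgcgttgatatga
Rpl35a, chr16:33056472-33056501, plus strand: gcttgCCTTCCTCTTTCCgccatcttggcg

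The nearest listed start was 3 bases from the RefSeq start in Rpl13a, 16 in Rpl15, 2 in Rps18, 3 in Rps24 and 16 in Rpl35a.

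The recurrence of events across libraries is given as a description, with no test. Of the members' 289 distinct events, 180 (62.3%) were in all 6 lists and 50 (17.3%) in 1 list only. In other protein-coding genes 20.5% of 131360 events were in all lists and 50.6% in 1 list, and in the mitochondrial ribosomal protein genes 48.4% and 25.8% of 341. Within families 103 of the members' 161 starts were in all 6 lists, against 29.0% in other genes, and 68.9% of the members' ends, against 31.0%. The mitochondrial set, at 69.8% of ends, lay at the level of the cytosolic set. The families differ in recurrence, and the cytosolic set has few events of the families that recur least.

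**Figure D4:**
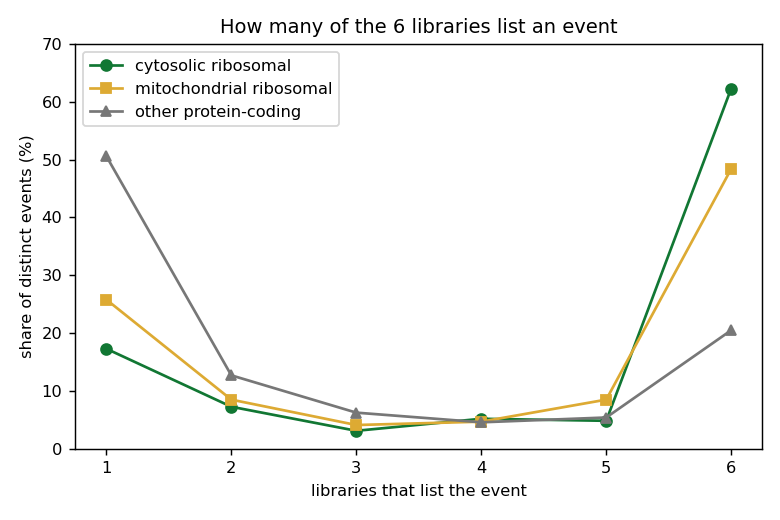
Share of distinct events (y axis, percent) by the number of libraries that list them (x axis, 1 to 6), for cytosolic ribosomal, mitochondrial ribosomal and other protein-coding genes. Most events of the cytosolic set are in all 6 lists (62.3%), and most events of other genes are in 1 list (50.6%).

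Transcript ends overlapped between the groups. They numbered 85, 88 and 83 in saline and 85, 88 and 85 in morphine (85.3 ± 2.52 against 86.0 ± 1.73, SD, n = 3; exact permutation p = 1.0, adjusted p = 1.0). A few entries carried the identifier of a ribosomal protein gene but lay elsewhere: 17 of the 289 events did not overlap their gene and 5 were on the other strand. Rps12, a small subunit protein known from cell competition in flies, held 6 of the 17. Its annotated gene spans chr10:23785183-23787275 on the minus strand, and events with its identifier were listed between 4674 and 7876 bases outside it. An end at chr10:23776456-23777307 was in saline 1 and in all 3 morphine libraries, and a skipped exon at chr10:23779361-23779439 in saline 1, morphine 1 and morphine 3. The number of Rps12 events was 4, 3 and 2 in saline and 3, 6 and 5 in morphine, with groups that overlapped. In Rpl27 an end in saline 3 lay 494161 bases away, over the pseudogene Rpl27-ps2. In Rps29, 3 starts between 33272 and 38790 bases from the gene and an end over Rn7s1, a gene of the signal recognition particle RNA, were on the other strand, in saline 1 and morphine 1. The start and end of Rps29 itself were missing from both of these lists, so its count as listed there rests on the stray entries.

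Processed pseudogenes of these genes are numerous, and reads from a near-identical copy can be given to either. Of 300 annotated Rpl and Rps symbols with -ps, 0 were listed. Single-exon genes are rare in these lists, as 158 of 22081 annotated genes with only single-exon transcripts (0.716%) were listed. The members that were never listed, Rpl10l and Rps27rt, have 1 annotated exon. Rpl10l is a retrogene of Rpl10.

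The paralogs and namesakes among the members had few events. Rpl36al had 3 events and Rpl22l1, Rps27l and Rps19bp1 had 2 in every library. Rps19bp1, named after its binding of Rps19, is not a ribosomal protein. Rpl7l1 had 2, 3 and 2 events in saline and 3, 2 and 2 in morphine. Rpl3l, the paralog of Rpl3 known from heart and skeletal muscle, had 2 events in morphine 3 and was in no other list. Rpl39l, known from the testis, had 2 events in saline 2 and was in no other list. Rps4l is annotated as a pseudogene in this release and is no member. Rpl29, a large subunit protein, was missing from morphine 1 and had 4, 2 and 2 events in saline and 2 and 2 in the other morphine libraries. Rplp2, the partner of Rplp1 in the stalk, had 2 events in 5 libraries and 3 in morphine 3.

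Genes that act with the ribosomal proteins were also compared. Among ribosomal proteins under other symbols, Fau had 3 and Rack1 had 2 events in each library, and neither had a splicing event. Elongation factors (6 genes) had 3.31 events per listed gene on average, initiation factors (29 genes) 3.16, regulators of TOP messages (9 genes) 4.65, ribosome biogenesis factors (19 genes) 4.09 and nonsense-mediated decay factors (8 genes) 5.1. Splicing events were listed in 3 of the 6 elongation factors, 9 of the 29 initiation factors, 7 of the 9 TOP regulators, 13 of the 19 biogenesis factors, 8 of the 8 decay factors and 35 of the 78 mitochondrial ribosomal protein genes. Event numbers that did not overlap between the groups were seen in 1 gene of these lists, the biogenesis factor Wdr12, with 4, 5 and 8 events in saline and 3, 3 and 3 in morphine, and in none of the others, against the backgrounds of 0.966% and 1.81% given above.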

How the data were processed

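Strand-specific libraries of total RNA were mapped by the authors with HISAT2 and assembled with StringTie. The genome build is not given in the sources used here, and coordinates matched GENCODE M21 on GRCm38, where 99.3% to 99.33% of listed gene identifiers were found. The event lists deposited by the authors have the layout of the ASprofile program and hold 67535 to 80469 entries per library. Their column headed FPKM holds whole numbers from -25 to 0 in the deposited files. Its meaning is not known, it was recorded as a score in the deposited lists for want of a unit, and it was not used. A deposited table of long non-coding transcripts, with the authors' read counts and FPKM values, served only for relative depth, from the ratio of count to FPKM. Its columns of fold changes and false discovery rates are the authors' own comparison and were not used. The number of per-sample columns left unused was 0.

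Included and skipped entries of an event were merged, 20 types formed 12 classes and 5 families, and a start or end was defined by the coordinate on its splice side. Groups were taken from the treatment labels, and replicate numbers are names. Two-sided exact permutation tests over libraries compared event numbers between groups, and within libraries by exact sign-flip tests, with Benjamini-Hochberg adjustment. An event was group-specific when each library of 1 group and no library of the other listed it. Members, lists and tests were chosen with earlier results of these data known, and the sign-flip comparisons and recurrence shares were added after seeing the data. Named were the 10 members with the most events, those with a skipped exon or alternative exon end in all libraries, a retained intron in at least 4, a group-specific event or numbers that did not overlap, those never listed, and a preset list. Rpl28, Rps2, Rps27a, Rps12, Rpl29, Rps29, Rpl27, Rpl4, Rps4l and Wdr12 were named after their values were seen. The values of some genes are not reported here. Sequences were cut from GENCODE M21 transcripts and the RefSeq promoter table. Scripts were tested on simulated data. Computations ran in Python 3.11.15 (scipy 1.17.1, pandas 2.3.3, numpy 2.4.6), and figures were drawn with matplotlib 3.10.9.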

Additional observations from a re-analysis of the deposited data

How the results depend on the processing

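Of 134 alternative values for 15 results, 6 turned the direction and 13 moved a count or share past its limit. No permutation test between the groups could pass 0.05 in any of them. Scaled per 1000 listed events, the difference in all events became -0.187 and that in ends -0.0693, and 5 genes did not overlap in place of 3, with Rpl28 and Rpl7 added. With all coordinates and the pattern as identity, the difference in all events was 5.67 in place of 1.0, in skipping 6.0 in place of 2.33 and in retention 2.0 in place of 1.0, group-specific events numbered 4 and the share of events in all 6 libraries was 44.4% in place of 62.3%. Within 10 bases 82.8% of starts, and within 100 bases 97.5%, lay near an annotated start. No retained intron with a snoRNA (0) was in at least 2 libraries.

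Without 1 library at a time, the difference in all events ranged from -0.5 (without morphine 3) to 3.5 (without morphine 1), in ends from -0.5 (without saline 3) to 2.0 (without saline 2), with -0.333 without morphine 2, and in listed genes from -0.833 (without morphine 3) to 0.167 (without morphine 1). Without morphine 3 the difference in skipping was 1.17 and in retention 0.5. The difference in share, -0.0187, was -0.0109 without saline 2, -0.00738 without morphine 1 and -0.0307 without morphine 3, and that in exon ends, 0.667, lay between 0.333 and 1.33. Group-specific events numbered 3 to 7 in place of 2, with 5 without saline 1, 7 without saline 2, 4 without morphine 1 and 5 without morphine 3. Non-overlapping genes numbered 3 to 5, with 5 without saline 2 or morphine 1. The retained introns with a snoRNA numbered 0 to 1, with 0 without morphine 2. No paired analysis was possible because the labels give no replicate number shared by the groups. The lists give no read numbers, so the depth behind an event is unknown.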
